A study of Bos taurus with 18 samples.

Results

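Cytosolic ribosomal proteins are the protein part of the ribosomes that translate nuclear mRNAs. Genes were chosen by name alone: a symbol of the RPL or RPS series with a number, or RPLP0, RPLP1, RPLP2 or RPSA, with the RPS6K kinases left out. The array named 67 such genes, 42 of the large (60S) subunit and 25 of the small (40S) subunit, among 9155 genes in all. They were carried by 94 probe sets, and for each gene the one brightest on average across all 18 arrays was taken. RPLP1 was not measured under that name.

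RNA was measured in milk cells of 18 dairy cows (Bos taurus), 6 healthy, 6 with mastitis and 6 with endometritis, with 1 Affymetrix bovine array per cow. Mastitis is an inflammation of the udder, and endometritis is one of the lining of the uterus. The healthy cows had fewer than 100000 somatic cells per ml of milk and were given as 2 to 4 years old and in lactations 1 to 3, with 1 animal in the 4th and 1 in the 8th, although an 8th lactation cannot be reached at 4 years. Most were sampled 10 to 100 days after calving. Cows of both disease groups were in lactations 1 to 8 and 10 to 220 days after calving, with no age given, so the groups may not match in age or days in milk. The labels name no breed, pathogen, treatment or cell sort, and the mixture of cells in each milk was not given.

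Each ribosome holds a single copy of nearly every ribosomal protein, so cells need them in matched amounts. Their mRNAs are short, abundant and begin with a terminal oligopyrimidine (TOP) tract, through which the kinase mTORC1 governs how strongly they are translated. In the lactating udder, secretory epithelial cells make large amounts of milk protein and depend on a high capacity for translation, whereas mature neutrophils, the cells that enter milk in mastitis, are short-lived and make comparatively little protein.

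Of the 67 genes, 64 lay above the array's floor on more than 6 arrays, the floor being the median of all deposited values, 2.55 on the log2 scale. The representatives of RPL37, RPL3L and RPS19 lay at the floor. RPL3L is the form of RPL3 used in striated muscle, whereas RPL37 and RPS19 belong to all ribosomes. 60 of the 67 had a mean of 10 or more, and the highest single value was 13.17, of RPS3A on an endometritis array, while the array's own highest value was 14.23. Levels of different probe sets were not compared, since the signal also depends on the probes.

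Ribosomal protein mRNAs were lower in mastitis than in healthy milk cells. Of the 67 genes, 56 were lower at an adjusted p under 0.05 (limma, Benjamini-Hochberg adjustment over all 24016 probe sets), 1 was higher and 10 were not called. Over all probe sets, 9.35% were lower and 10.2% higher. The median difference of the 67 genes was -1.16 on the log2 scale, against 0 over all probe sets, and 40 genes were at least 2-fold lower. The lower genes were 35 of the 42 of the large subunit and 21 of the 25 of the small subunit. Each of the 64 genes above the floor had a mastitis mean below its healthy mean. When single arrays were left out, 13 of the 56 calls were lost at least once: those of RPL8, RPL27A, RPL31, RPL32, RPL35A, RPL39, RPS2, RPS3, RPS15A, RPS24, RPS26, RPS29 and RPSA, all of them without mastitis array 2 and without mastitis array 4.

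For 33 genes all 6 mastitis arrays lay below all 6 healthy arrays, a separation that 5.84% of all probe sets showed in that direction. Other genes of high signal went both ways. Of the 82 other genes with a mean of 10 or more, 26.8% were lower and 24.4% higher, with a median difference of 0.52. Among the 64 ribosomal protein genes, the healthy mean and the difference had a Spearman correlation of 0.16, a description across genes of the same arrays. In bulk RNA such as this, fewer cells of a type and less RNA per cell cannot be told apart.

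**Figure D1:**
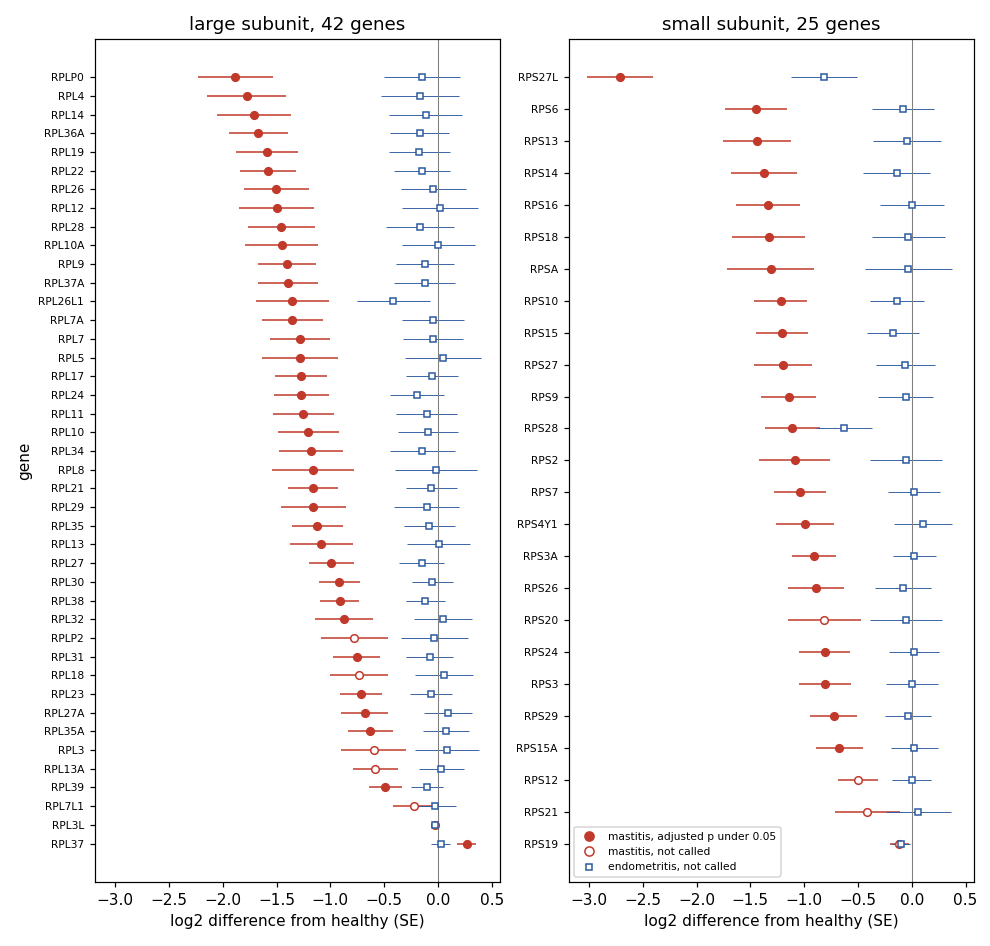
Difference from the healthy group on the log2 scale (x axis) for each of the 67 genes (y axis), large subunit left and small subunit right, ordered by the mastitis difference. Circles give mastitis (filled where the adjusted p was under 0.05), squares give endometritis, and bars the standard error of the fit. RPS27L lies apart at -2.71 in mastitis, and the endometritis squares gather near 0.

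The fall was uneven between cows. The mean of the 64 genes was 11.24, 11.25, 11.58, 11.56, 11.76 and 11.60 on healthy arrays 1 to 6, and 11.43, 11.64, 11.36, 11.72, 11.17 and 11.19 on endometritis arrays 1 to 6. On mastitis arrays 1 to 6 it was 9.60, 9.70, 10.91, 9.89, 11.16 and 10.94. Mastitis arrays 1, 2 and 4 were the lowest of the 18, and mastitis arrays 3, 5 and 6 lay just under the lowest healthy and endometritis values, so the mastitis range did not overlap with the others. Counted gene by gene, 63, 63, 51, 63, 33 and 49 of the 64 genes lay below every healthy array on mastitis arrays 1 to 6. The same count on endometritis arrays 1 to 6 was 1, 4, 5, 3, 29 and 25.

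Differences between cows were shared by most of the genes. In mastitis the median standard deviation of a gene over 6 cows was 0.71, against 0.24 in healthy and 0.26 in endometritis, while over all 9155 genes it was 0.25 in mastitis. The all-gene value includes many dim genes; over the 82 other genes with a mean of 10 or more it was 0.55 in mastitis, 0.53 in healthy and 0.76 in endometritis. As a description over the 6 arrays of each group, a gene's correlation with the mean of the other ribosomal protein genes had a median of 0.98 in mastitis, 0.84 in healthy and 0.91 in endometritis. These correlations share each array's scaling. The least alike in mastitis was RPL7L1 (0.52). Over the endometritis arrays 60 of the 64 genes had a correlation above 0, and that of RPS28 was the lowest (-0.96).

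**Figure D2:**
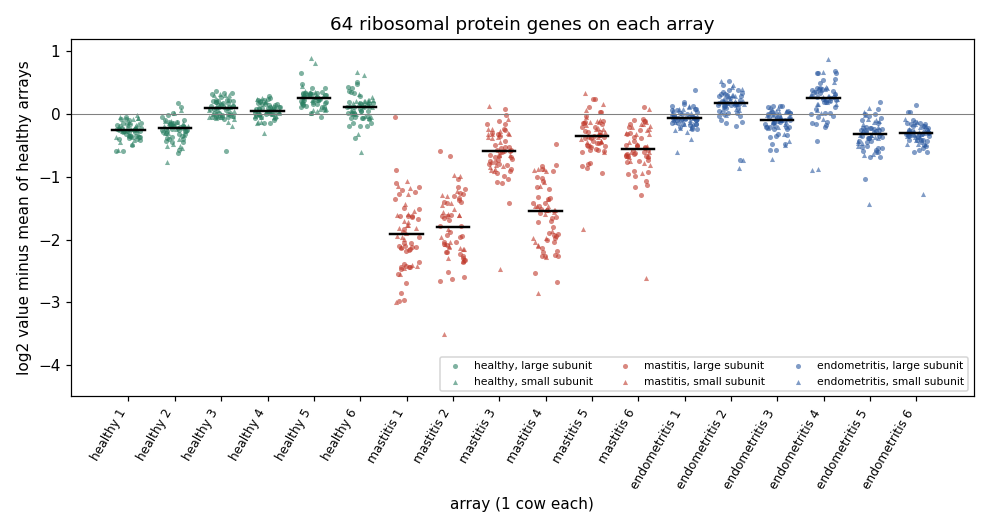
Log2 value of each of 64 genes minus its mean over the healthy arrays (y axis), for each of the 18 arrays (x axis). Dots are large and triangles small subunit genes, and a black line marks the median of the genes on each array. Mastitis arrays 1, 2 and 4 are the lowest, and the lone triangle under mastitis arrays 3, 5 and 6 is RPS27L.

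The large subunit representative with the largest difference was that of RPLP0, which anchors the stalk that recruits the GTPase translation factors to the ribosome. Its values on healthy arrays 1 to 6 were 11.88, 11.94, 12.35, 12.35, 12.40 and 11.96, and on mastitis arrays 1 to 6 they were 9.18, 9.48, 11.24, 9.47, 11.36 and 10.85. All mastitis values lay below all healthy ones, although mastitis 3 and 5 came close. The difference was -1.88 with a standard error of 0.35, a 3.69-fold lower level (adjusted p = 0.00144). The endometritis values ran from 11.55 to 12.27 and overlapped the healthy ones. The other probe sets of RPLP0 gave -1.63 at a like signal (adjusted p = 0.00609) and -0.86 at a mean of 4.81 (adjusted p = 0.00532). With the latter, the only one whose name does not mark possible cross-hybridisation, RPLP0 no longer has the largest difference.

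The other stalk proteins differed among themselves. RPL12, which lies at the base of the stalk beside RPLP0, was lower by 2.83-fold (-1.50, SE 0.35, adjusted p = 0.00654). RPLP2, which with RPLP1 forms the flexible arm of the stalk, ranged from 10.68 to 11.73 in healthy and from 9.68 to 11.28 in mastitis. Its difference of -0.78 did not pass (SE 0.31, adjusted p = 0.100), and its groups overlapped. Whether RPLP2 differed less than RPLP0 was not tested.

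RPL4 reaches into the tunnel through which the new protein chain leaves the ribosome. Its healthy values were 11.59, 11.85, 12, 12.23, 12.4 and 11.85 and its mastitis values 9.01, 9.36, 11, 9.46, 11.41 and 11.03, arrays 1 to 6 in each. The groups did not overlap, and the difference was -1.78 (SE 0.37, 3.43-fold lower, adjusted p = 0.00278). All 7 proteins of the tunnel and its exit (RPL4, RPL17, RPL19, RPL26, RPL31, RPL35 and RPL39) were lower, from -1.78 to -0.49 and with a median of -1.27. RPL19, at the exit, had a difference of -1.59 (SE 0.29, adjusted p = 0.00113).

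RPL39, the small tunnel protein, had the least change of the 7. It ranged from 12.01 to 12.25 in healthy and from 11.25 to 12.11 in mastitis, and these ranges overlapped. Its difference was -0.49 (SE 0.15, adjusted p = 0.0320). That call was lost when any of healthy arrays 3, 4, 5 and 6 or mastitis arrays 1, 2 and 4 was left out, with adjusted p-values up to 0.0782.

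RPL5 and RPL11, which travel with the 5S rRNA and, when free, bind MDM2 and so stabilise p53, were lower by similar amounts. RPL5 had a median of 11.82 in healthy (11.26 to 11.97) and 10.55 in mastitis (9.39 to 11.55), and these ranges overlapped. The difference was -1.28 (SE 0.35, adjusted p = 0.0171). RPL11 had a median of 12.59 in healthy (12.25 to 12.71) and 11.35 in mastitis (10.13 to 12.13), with no overlap and a difference of -1.25 (SE 0.28, adjusted p = 0.00516).

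Of the proteins grouped under late maturation of the large subunit, RPL10, RPL23 and RPL24, all 3 were lower. RPL10, whose loading in the cytoplasm lets the export factor NMD3 leave, was lower by 2.30-fold (-1.20, SE 0.28, adjusted p = 0.00663). RPL24 had a difference of -1.27 and RPL23 of -0.72.

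Other large subunit proteins with large differences were RPL14, RPL36A and RPL22. RPL14 had a median of 11.64 in healthy and 9.84 in mastitis (-1.71, SE 0.34, adjusted p = 0.00225). RPL36A had medians of 11.23 and 9.43 (-1.67, SE 0.27, adjusted p = 0.000595). RPL22, which the ribosome can lose without losing function and which is known for its role in T cell development, had medians of 11.31 and 9.75 (-1.58, SE 0.26, adjusted p = 0.000618). In all 3 the healthy and mastitis ranges did not overlap.

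Large subunit genes that did not pass were RPLP2, RPL18, RPL3, RPL13A, RPL7L1 and RPL3L. RPL3, which lies near the catalytic centre, had a difference of -0.60 (SE 0.30, adjusted p = 0.20), and only 3 of its 6 mastitis arrays lay below the healthy mean. RPL18 had -0.73 (SE 0.27, adjusted p = 0.0699). The 1 gene called higher was RPL37, by 0.27 (SE 0.087, adjusted p = 0.0426), but it lay between 2.4 and 3.0 on the healthy and mastitis arrays, at the floor, so this call describes a background signal.

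The small subunit gene with the largest difference was RPS27L, a paralog of RPS27 whose human and mouse forms are induced by p53. Its values on healthy arrays 1 to 6 were 8.54, 8.6, 9.3, 9.25, 9.90 and 8.39, on mastitis arrays 6.01, 5.49, 6.53, 6.15, 7.16 and 6.38, and on endometritis arrays 8.71, 8.26, 8.68, 8.12, 7.57 and 7.72. All mastitis values lay below all others, also on mastitis arrays 3, 5 and 6, where the mean of the ribosomal protein genes was nearer to healthy. The difference between mastitis and healthy was -2.71 (SE 0.31, 6.55-fold lower, adjusted p = 4.56e-05). The second probe set of this gene lay at the floor, with a mean of 2.44, and averaging both brought the difference to -1.35.

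RPS6, the target of the S6 kinases downstream of mTORC1, had values of 11.92, 12.01, 12.27, 12.19, 12.37 and 12.15 on healthy arrays 1 to 6 and of 9.75, 10.04, 11.34, 10.05, 11.54 and 11.48 on mastitis arrays 1 to 6. There was no overlap, and the difference was -1.45 (SE 0.29, 2.73-fold lower, adjusted p = 0.00231). RPS13 had medians of 11.71 in healthy and 10.17 in mastitis, also without overlap (-1.43, SE 0.32, adjusted p = 0.0045). RPS18, in the head of the subunit, had medians of 11.99 and 10.63 without overlap (-1.33, SE 0.34, adjusted p = 0.0107).

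Proteins at the path of the mRNA through the small subunit (RPS2, RPS3, RPS14, RPS26, RPS28 and RPSA) were all called lower, from -1.37 to -0.80. Left out one at a time, mastitis arrays 1, 2 and 4 and healthy array 5 each ended the calls of RPS2, RPS3, RPS26 and RPSA, and so did healthy array 6 for RPS2 and healthy arrays 4 and 6 for RPS3, with adjusted p-values up to 0.0736 for RPS2, 0.0667 for RPS3 and 0.062 for RPS26. RPS14, lost in the human 5q- syndrome, had medians of 12.02 and 10.50 with overlapping ranges (-1.37, SE 0.31, adjusted p = 0.00531). RPSA, also known as the laminin receptor, had values of 10.61, 10.26, 11.33, 11.21, 11.46 and 11.24 on healthy arrays 1 to 6 and of 8.6, 8.73, 10.7, 8.74, 10.79 and 10.7 on mastitis arrays 1 to 6. Its groups overlapped through healthy arrays 1 and 2. The difference of -1.31 (SE 0.40, adjusted p = 0.0313) was not called when any of healthy arrays 3, 4, 5 and 6 or mastitis arrays 1, 2 and 4 was left out, with adjusted p-values up to 0.0768.

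Of 7 proteins of the head of the small subunit (RPS10, RPS12, RPS15, RPS16, RPS18, RPS20 and RPS29), 5 were lower. RPS16, whose tail reaches the decoding site, had medians of 11.86 and 10.43 (-1.33, SE 0.30, adjusted p = 0.00478). RPS12 ranged from 12.49 to 12.73 in healthy and from 11.52 to 12.76 in mastitis, where the highest mastitis value passed every healthy one. Its difference of -0.50 did not pass (SE 0.19, adjusted p = 0.071), but it did when mastitis array 3 or 5 was left out (lowest adjusted p 0.0121). RPS20 (-0.81, adjusted p = 0.113), RPS21 (-0.41, adjusted p = 0.410) and RPS19, at the floor, were the other small subunit genes not called.

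RPS4Y1 is the symbol the annotation gives to a probe set with a near-identical relative on the X chromosome in mammals. All arrays were from lactating cows, which carry no Y chromosome, so the signal cannot come from a Y-linked gene. It may come from the relative on the X chromosome, which was not tested. The representative was lower by 1.99-fold (-0.99, SE 0.27, adjusted p = 0.0169). A second probe set of that symbol, with a mean of only 3.09, was higher by 1.16 (adjusted p = 0.0200). Of 27 further probe sets of the ribosomal protein genes, 8 were lower and 1 higher, and 22 had a mean under 5.

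Genes of 2 groups known outside the ribosome were read from the same fit. Of all 67 ribosomal protein genes 56 were lower, and no count by role, here or above, was tested against that share. Of 10 genes mutated in Diamond-Blackfan anaemia, a human failure of red cell production, 9 were lower and RPS19 lay at the floor. Of 5 that are often used as reference genes in quantitative PCR, RPLP0, RPS9, RPS15A and RPS18 were lower, by 3.69-fold, 2.21-fold, 1.6-fold and 2.51-fold. RPS15A had the weakest of these calls (adjusted p = 0.0416) and lost it when any of healthy arrays 1, 3, 4, 5 and 6, mastitis arrays 1, 2 and 4 or endometritis array 1 was left out, with adjusted p-values up to 0.0985.

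The fifth reference gene, RPL13A, was not called. Its values were 12.44, 12.22, 12.43, 12.52, 12.59 and 12.68 on healthy arrays 1 to 6 and 11.38, 11.22, 12.22, 11.60, 12.59 and 12.39 on mastitis arrays 1 to 6. Mastitis arrays 3, 5 and 6 lay within or at the healthy range. The difference was -0.58 (SE 0.21, adjusted p = 0.0605), and it passed when mastitis array 3, 5 or 6 was left out (lowest adjusted p 0.0139).

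**Figure D3:**
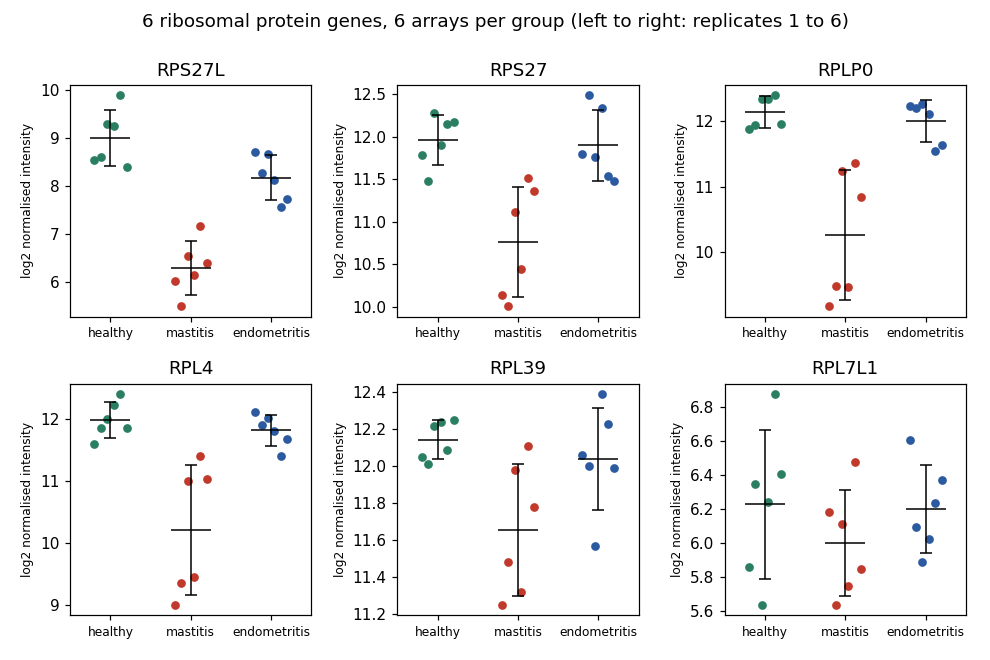
Deposited log2 values (y axes, on a scale of its own for each gene) of RPS27L, RPS27, RPLP0, RPL4, RPL39 and RPL7L1 in the 3 groups, 1 dot per cow and replicates 1 to 6 from left to right, with mean and SD. RPS27L is low on all 6 mastitis arrays, RPLP0 and RPL4 are lowest on arrays 1, 2 and 4, and RPL7L1 overlaps throughout.

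For 3 pairs of paralogs the partner's log2 value was subtracted from that of the paralog on each array. The pairs were chosen with the values of their members known, so these differences are given as a description, without p-values. RPS27L minus RPS27 was -2.97 ± 0.52 in healthy, -4.48 ± 0.29 in mastitis and -3.73 ± 0.52 in endometritis (SD, n = 6 each). All 6 mastitis values, from -4.98 to -4.14, lay below all 6 healthy ones, from -3.79 to -2.25, and the endometritis values, from -4.23 to -3.09, overlapped both.

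RPL7L1, known as a factor of large subunit assembly rather than as a part of the finished ribosome, had medians of 6.29 in healthy, 5.98 in mastitis and 6.16 in endometritis, and its ranges overlapped (mastitis against healthy -0.23, SE 0.20, adjusted p = 0.480). Its partner RPL7 was lower by 2.44-fold (-1.29, SE 0.28, adjusted p = 0.00406). RPL7L1 minus RPL7 was -6.16 ± 0.45 in healthy, -5.10 ± 0.72 in mastitis and -6.14 ± 0.18 in endometritis. The mastitis values, from -5.87 to -4.10, overlapped the healthy ones, from -6.88 to -5.6, and lay above all endometritis values, from -6.47 to -5.94.

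RPL26L1 is nearly identical to RPL26 in protein. The difference between mastitis and healthy was -1.5 for RPL26 and -1.35 for RPL26L1. RPL26L1 minus RPL26 was -5.65 ± 0.20 in healthy, -5.50 ± 0.49 in mastitis and -6.02 ± 0.40 in endometritis, and the ranges of the 3 groups overlapped. Probes of such close relatives can pick up both mRNAs.

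Genes of both subunits were lower in mastitis. The median difference was -1.17 over the 42 large and -1.09 over the 25 small subunit genes. Per array, the mean of the large minus that of the small subunit genes above the floor was -0.17 ± 0.045 in healthy, -0.21 ± 0.032 in mastitis and -0.15 ± 0.034 in endometritis (SD, n = 6 each). The healthy range of this value, from -0.22 to -0.11, overlapped the mastitis range, from -0.26 to -0.16, as did the endometritis range, from -0.19 to -0.10. No test was made because the genes were chosen with results known.

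In endometritis, compared with the same healthy arrays, 0 of the 67 genes were called by limma, as were 0% of all probe sets in either direction. At an unadjusted p under 0.05 there were 2 genes, and 1047 of all 24016 probe sets. The median difference was -0.05, and 61 of the 64 genes above the floor lay within 0.2 of 0. The sign of this small median depended on the processing. Over the 64 genes it was 0.097 with title number as a block (8 genes below 0, in place of 46) and 0.044 with the GAPDH covariate. It was 0.19 after hybridisation control scaling with dim probe sets left out, but there the median of all probe sets left was 0.27. The median of the 64 genes minus that of all probe sets left was -0.081, as with the filter alone. The 95% intervals of the fit had a median lower bound of -0.66 and a median upper bound of 0.51, and for 61 of the 64 genes the interval left out a difference of -1.

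Both genes with an unadjusted p under 0.05 were of the small subunit. RPS27L had 8.18 ± 0.47 in endometritis and 9.0 ± 0.58 in healthy, a difference of -0.82 with an interval from -1.47 to -0.17 (adjusted p = 0.925). RPS28 had 7.36 ± 0.20 and 7.99 ± 0.49, a difference of -0.63 with an interval from -1.18 to -0.083 (adjusted p = 0.925). On all 6 endometritis arrays both genes lay below the healthy mean, and both groups' ranges overlapped.

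Mastitis against endometritis gave 52 of the 67 genes lower and 0 higher, with 6.55% of all probe sets lower and 7.99% higher. It shares the mastitis arrays with the comparison of mastitis and healthy. The median difference was -1.06, and 22 genes did not overlap between the groups, against 3.91% of all probe sets in that direction. The largest differences were those of RPS27L (-1.89, SE 0.31, adjusted p = 0.000831) and RPLP0 (-1.74, SE 0.35, adjusted p = 0.00367). Of the large subunit, 32 genes were lower, and of the small subunit, 20. RPL39 (-0.39, adjusted p = 0.108), RPL26L1 (-0.94, adjusted p = 0.0799), RPS28 (-0.48, adjusted p = 0.264) and RPL8 (-1.14, adjusted p = 0.0558) were lower against healthy but were not called here. The count of lower genes was 57 with dim probe sets left out and 13 when hybridisation control scaling was added to that filter. It was 31 with the 12 arrays of these groups alone and 26 with array weights. In the same settings and order, 16.3%, 5.27%, 5.38% and 4.82% of the probe sets tested were lower.

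Other genes of the pathway were read from lists of whole groups, drawn up with earlier results of these data known. At 1 probe set per gene, 15.8% of the 9155 genes were lower in mastitis than in healthy and 11.3% higher. Ribosomal proteins with names outside the series were RACK1, a scaffold on the head of the small subunit, and FAU, whose product is cleaved to RPS30. RACK1 ranged from 11.90 to 12.30 in healthy and from 9.97 to 11.87 in mastitis and was lower (-1.25, SE 0.30, adjusted p = 0.00803). FAU had 11.29 in healthy and 11.18 in mastitis (-0.11, SE 0.22, adjusted p = 0.809).

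Translation factors and other proteins encoded, like the ribosomal proteins, by TOP mRNAs were lower for 6 of 14 measured. Among these 14, 0 were higher, and the median was -0.70. EEF1D, EEF1G and EEF1B2, subunits of the complex that reloads elongation factor 1A with GTP, had differences of -2.09, -1.51 and -1.31 (adjusted p = 0.00157, 0.00288 and 0.0075). BTF3, which guards new protein chains at the tunnel exit, had -1.04 (SE 0.19, adjusted p = 0.00116). Against endometritis 6 of the 14 were lower as well.

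The ribosomes of mitochondria are built from a separate set of nuclear genes. Of 67 such genes, 45 were lower in mastitis than in healthy and 0 higher, with a median of -0.97. MRPS14 had -2.14 (SE 0.34, adjusted p = 0.000513) and MRPS34 -2.08 (SE 0.34, adjusted p = 0.00057). In endometritis against healthy their median was -0.34, with 0 called. Against endometritis 26 of the 67 were lower in mastitis, where 10.9% of all genes were lower and 9.14% higher.

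Of 65 measured factors that build ribosomes, 8 were lower, 6 higher and 51 not called, with a median of 0.015, shares near those of all genes. 6 of them lay at the floor in healthy and 5 in mastitis. NHP2, of the box H/ACA particles that modify rRNA, was lower (-1.93, SE 0.38, adjusted p = 0.00213), and NMD3, the export adaptor of the large subunit, was lower as well (-1.15, SE 0.29, adjusted p = 0.00954). XRN2, an exonuclease that trims rRNA precursors, was higher by 1.36 (SE 0.30, adjusted p = 0.00466), and GTPBP4, a GTPase of large subunit assembly, by 0.93 (SE 0.17, adjusted p = 0.00109).

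Among 13 measured genes known to act on ribosomal protein genes or on TOP mRNAs, 5 were higher and 1 lower. DDIT4, an inhibitor of mTORC1 induced by stress and hypoxia, rose from a range of 6.60 to 8.86 in healthy to 10.82 to 12.59 in mastitis, a difference of 4.46 (SE 0.51, adjusted p = 4.87e-05). SESN2 and TSC1, which also restrain mTORC1, were higher by 2.36 (SE 0.46, adjusted p = 0.00195) and 1.44 (SE 0.25, adjusted p = 0.000997). RHEB, the GTPase that activates mTORC1, was lower (-1.82, SE 0.24, adjusted p = 0.000133), with 6.95 to 7.82 in healthy and 5.07 to 6.16 in mastitis. mRNA levels say nothing of the activity of the kinase.

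**Figure D4:**
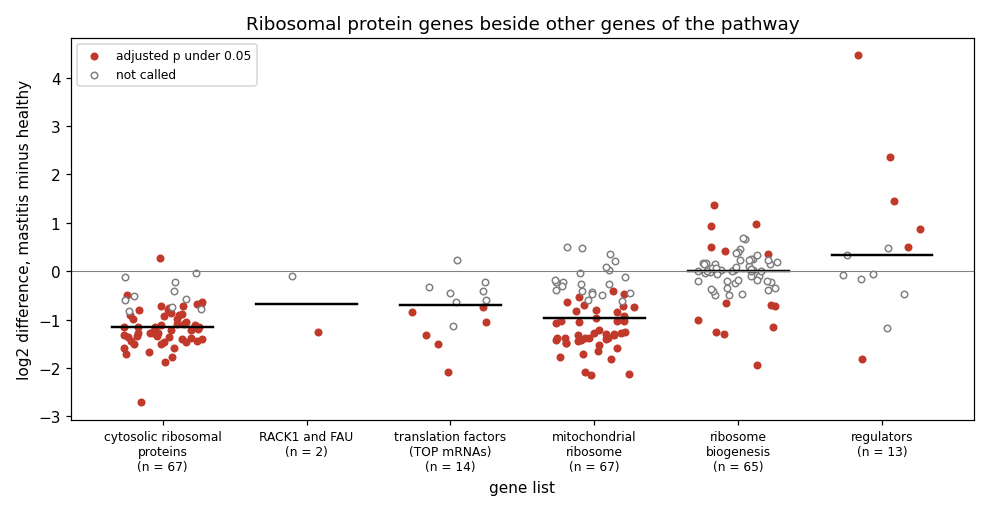
Difference between mastitis and healthy on the log2 scale (y axis) for each gene of 6 lists (x axis), filled where the adjusted p was under 0.05, with the median as a black line. Cytosolic and mitochondrial ribosomal proteins have medians of -1.16 and -0.97, factors of ribosome biogenesis 0.015.

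Markers of some cell types in milk also differed between mastitis and healthy. Of 12 measured neutrophil markers 7 were higher in mastitis than in healthy, and their mean rose from a range of 4.06 to 5.57 to one of 6.54 to 7.70, with PGLYRP1 at the floor in both groups, ELANE in healthy and MPO in mastitis. Of 18 markers of milk secretory cells 15 were lower, and their mean went from 9.48 to 11.13 in healthy to 5.29 to 7.57 in mastitis. Of 11 epithelial markers 7 were lower (3.90 to 5.19 in healthy, 2.64 to 3.01 in mastitis), with KRT8 at the floor in both groups, KRT14 in healthy and CLDN3 in mastitis. Of the markers of macrophages (11), T cells (14) and red cells (7), 0 were called, while 2 of 9 NK cell and 1 of 5 B cell markers were higher. The ranges of macrophage means (4.53 to 7.73 in healthy, 6.07 to 8.27 in mastitis) and T cell means (2.91 to 4.93 and 2.66 to 4.76) overlapped, with CD4 at the floor in both groups, and all 7 red cell markers were at the floor in healthy.

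Within mastitis, arrays 1, 2 and 4, with the lowest ribosomal protein means, had neutrophil means of 7.63, 7.70 and 7.44, against 6.66, 6.54 and 7.25 on arrays 3, 5 and 6. Their macrophage means were 6.36, 6.07 and 6.14, against 8.15, 8.27 and 6.82. Mean levels of secretory markers were 7.57, 6.01 and 5.88 on the first 3 and 5.29, 5.38 and 5.52 on the others. In endometritis the neutrophil mean ranged from 3.66 to 5.69 and the secretory mean from 8.21 to 11.23. The part of cell composition in the ribosomal protein values was not tested.

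**Figure D5:**
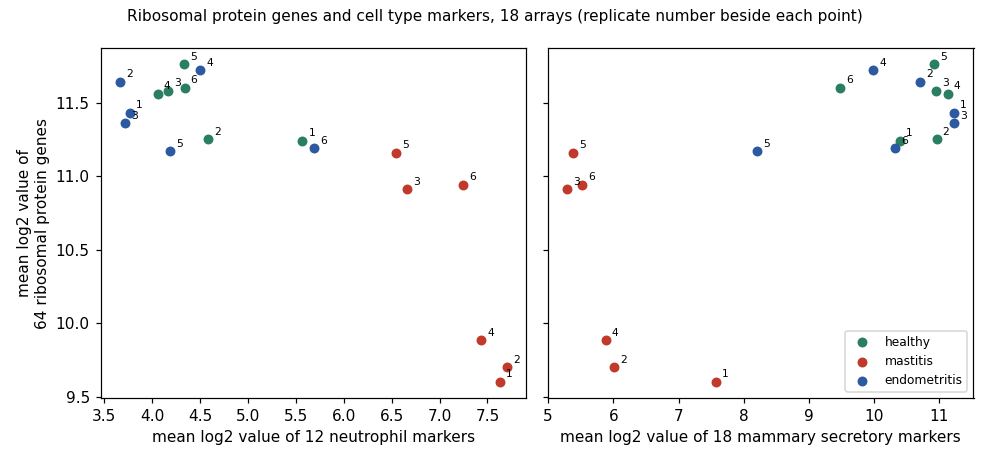
Mean log2 value of 64 ribosomal protein genes (y axis) against the mean of 12 neutrophil markers (left) and of 18 mammary secretory markers (right), for each array, with the replicate number beside it. Mastitis arrays 1, 2 and 4 are lowest on the y axis and have neutrophil means of 7.63, 7.70 and 7.44.

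Control probe sets also differed between the groups. The spiked dap transcript read 7.41 ± 0.83 in healthy, 6.03 ± 0.45 in mastitis and 6.93 ± 0.81 in endometritis, and the hybridisation controls 7.93 ± 0.52, 7.58 ± 0.33 and 7.69 ± 0.59. The 3′ minus 5′ difference of GAPDH, a measure of how intact the RNA was, read 0.88 ± 0.40, 0.39 ± 0.23 and 0.58 ± 0.25 (SD, n = 6 each). Leaving out dim probe sets gave 60 ribosomal protein genes lower in mastitis than in healthy, where 20.5% of the 12782 probe sets left were lower. Scaling the arrays to the hybridisation controls on top of that filter gave 7 (RPL4, RPL14, RPL19, RPL22, RPL36A, RPLP0 and RPS27L), where 6.13% of the probe sets left were lower. That scaling moved the median of the 64 genes above the floor from -1.16 to -0.82 and the median of the probe sets left from -0.012 to 0.33. With the GAPDH difference as a covariate 7 were lower as well (RPL9, RPL17, RPL19, RPL22, RPL36A, RPLP0 and RPS27L), where 2.38% of all probe sets were lower, and the median of the 64 genes was -0.98. With array weights, which give less weight to arrays that differ from the model, 33 were lower, where 8.67% of all probe sets were lower. The median of the 64 genes was then -0.73. RACK1, EEF1G, EEF1B2 and NMD3 were not called under either of the first settings, BTF3 not after the scaling, and NHP2 and XRN2 not with the covariate. After the scaling and with the covariate, 12 and 15 of the 67 mitochondrial ribosomal protein genes were lower. So were 1 and 2 of the 14 translation factors and other genes with TOP mRNAs. DDIT4, SESN2, TSC1 and RHEB were called under both settings.

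The cow numbers in the sample titles, which the labels do not call a batch, fell on both sides of 120. Among numbers up to 120 (4 mastitis, 3 healthy) the median difference of the 64 genes was -0.95, and among those above (2 mastitis, 3 healthy) it was -1.80, with all 64 genes below the healthy mean in both. In endometritis against healthy the median was -0.18 up to 120 (1 against 3 arrays, 60 of 64 genes below) and 0.081 above (5 against 3, 17 of 64 below). Mastitis arrays 1 and 2 lay above 120 and mastitis array 4 below.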

How the data were processed

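RNA (RIN above 6, 100 ng, primed at the poly-A tail) was hybridised to Affymetrix bovine arrays, per the labels' protocols. The authors deposited 1 normalised value per probe set and array, used here as log2 intensity. RMA, GCRMA and limma appear without versions or roles in the submitters' processing notes. Whether RMA or GCRMA made the values, and the log base, is not given in the sources used here, so fold changes rest on reading them as log2. Of 24128 probe sets, 112 controls were left out and 24016 tested. Symbols came from the platform annotation (1 symbol for 13292 probe sets, several for 86, none for 10638), and all 67 members matched a RefSeq symbol through their Entrez identifier. Of 83 RefSeq symbols that the naming rule takes, 67 were measured. The number of arrays limits the precision; 0 columns belonged to no sample.

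A limma 3.58.1 model (R 4.3.3; lmFit and eBayes, two-sided) with 1 term per group was fitted to all 18 arrays and probe sets (15 residual degrees of freedom), with Benjamini-Hochberg adjustment over all probe sets within each comparison and calls at an adjusted p under 0.05. The procedure was tested on simulated data. Their noise was independent between probe sets and of 1 spread in all groups. They therefore do not cover the wider mastitis spread or the differences between cows that genes share. Each array came from a separate cow. The 3 groups shared 1 estimate of the spread per probe set, although the spread of the ribosomal protein genes was wider in mastitis. Members and lists were chosen with earlier results of these data known. The rule for named genes took, per comparison and subunit, the 6 called genes with the largest difference, the 2 with the smallest, those called against the majority, the 4 highest and 4 lowest by mean, the stalk proteins, RPSA and the paralogs with their partners, and up to 4 genes of each pathway list by p. The groups by role in the ribosome and the genes named for them or for a missed or lost call were chosen after values were seen. Alternatives were probe set choice, a filter on dim probe sets, 3 scalings (median centring and hybridisation controls with that filter on), 12 arrays, array weights, a variance trend, a block for title number, a GAPDH covariate and each array left out.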

Additional observations from a re-analysis of the deposited data

How the results depend on the processing

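In mastitis against healthy, 56 genes were lower. The count was 60 with dim probe sets left out and 7 when hybridisation control scaling was added to that filter. It was 7 with the GAPDH covariate and 33 with array weights. In the same order, 20.5%, 6.13%, 2.38% and 8.67% of the probe sets tested were lower, against 9.35% in the main fit. With the 12 mastitis and healthy arrays alone, 43 ribosomal protein genes were lower, where 8.48% of all probe sets were lower. When each array was left out, the count lay between 43 (without mastitis 2, 7.86% of all probe sets) and 60 (without mastitis 5, 9.26%). RPL19, RPL22, RPL36A, RPLP0 and RPS27L were called in all 11 other settings, and 43 of the 56 in all 18 fits that left out an array. The 1 higher gene became 0 with median centring or hybridisation scaling, both with dim probe sets left out (that filter alone kept the count at 1), and with 12 arrays, array weights and the GAPDH covariate, and ranged from 0 to 1 over arrays left out. In mastitis against endometritis, the 52 lower genes became 13 with the filter and hybridisation scaling (57 with the filter alone). They became 31 with 12 arrays and 26 with array weights. In the same order, 5.27%, 16.3%, 5.38% and 4.82% of the probe sets tested were lower. Over arrays left out the count ran from 38 (without mastitis 2, 5.25% of all probe sets) to 58 (without mastitis 5, 7.25%). The count of higher ribosomal protein genes was 0 to 1. The 0 calls of endometritis against healthy stayed at 0 in each of these settings. The median difference of large minus small subunit genes (-0.094 in mastitis against healthy, -0.046 in mastitis against endometritis) became -0.0047 in the first with all probe sets of a gene averaged and -0.11 (-0.1075) in the second with quantile normalization; over arrays left out it ran from -0.16 to -0.065, from -0.080 to -0.0039 in endometritis against healthy, and from -0.072 to -0.010 in mastitis against endometritis. The causes were not tested. No call of a named gene reversed. With title number as a block, 60 and 59 genes were lower in mastitis against healthy and against endometritis, where 10.2% and 7.85% of all probe sets were lower. No paired analysis was possible because the labels give each cow a number of its own and no replicate number shared between groups. Signal over background limits RPL37, RPL3L and RPS19, which lay at the floor.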
